A study of Mus musculus with 9 samples.

Results

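The receptor genes Flt3 and Kit were examined as binding sites of TGIF1 and MEIS1 in mouse MLL-AF9 leukaemia cells. All peaks that overlapped chr5:148050000-148350000 (mm9), here called the Flt3 window, or chr5:75800000-76150000 (mm9), the Kit window, were taken as members. They numbered 113 of the 182249 peaks in the 8 deposited lists, 60 in the 300-kb Flt3 window and 53 in the 350-kb Kit window. Where peaks of any lists overlapped by at least 1 bp they were merged, which gave 16 regions in the Flt3 window and 21 in the Kit window. Regions were numbered along the chromosome, F1 to F16 at Flt3 and K1 to K21 at Kit.

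Chromatin immunoprecipitation followed by sequencing was done in C57BL/6 bone marrow cells that were transformed with the fusion oncogene MLL-AF9 and then transduced with pMIG-TGIF1-ER, a TGIF1 joined to the estrogen receptor and switched on by 4-hydroxytamoxifen (4-OHT). The groups were TGIF1 4-OHT, TGIF1 EtOH, MEIS1 4-OHT and MEIS1 EtOH, with 2 libraries each. The 4-OHT cells were treated for 20 h, and EtOH is the vehicle. All groups carried MLL-AF9 and TGIF1-ER, and no 4-OHT-treated cells without TGIF1-ER were in the series, so an effect of 4-OHT itself and one of active TGIF1 cannot be told apart. The antibody is labelled for TGIF, so peaks of endogenous TGIF1 and of TGIF1-ER cannot be told apart either. An IgG sample was not analysed here. The starting cells were c-kit+, that is, taken for the protein that Kit encodes. Whether the libraries within a group are separate cultures is not stated, and the spread between them may be technical.

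Kit encodes the receptor for stem cell factor, and Flt3 encodes the receptor for FLT3 ligand. Both are class III receptor tyrosine kinases of blood stem and progenitor cells, which signal for survival and growth when their ligand binds. Activating mutations of FLT3 are common in human acute myeloid leukaemia. MEIS1 is a TALE-class homeodomain protein that binds DNA with HOX and PBX partners, and Flt3 has been described as one of the genes that respond to it in mouse leukaemia models. TGIF1 is a TALE-class repressor, and both proteins are known to recognise sites around a TGACA core.

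In the gene order of GRCm38.p6, the coding genes next to Flt3 are Urad and Pan3, and those next to Kit are the receptor genes Pdgfra and Kdr. Flt3 spans 69.7 kb and Kit 81.7 kb in that build, so each window is several times longer than its gene. The position of each gene within its mm9 window was not used here, and no peak is assigned to a promoter, intron or neighbouring gene. The sequence under the peaks was not used here either. The RefSeq promoters of the receptor genes (GRCm38.p6, 300 bases around the start) are printed to show the start sites for which the windows are named, with the core TGACA or its reverse complement TGTCA in capitals.
Flt3: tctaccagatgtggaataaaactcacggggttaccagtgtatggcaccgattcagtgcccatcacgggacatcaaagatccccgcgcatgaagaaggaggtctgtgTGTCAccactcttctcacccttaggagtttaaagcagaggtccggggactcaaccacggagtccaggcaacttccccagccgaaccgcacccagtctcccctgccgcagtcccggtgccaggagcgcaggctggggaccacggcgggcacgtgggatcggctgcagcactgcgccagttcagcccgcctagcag
Kit: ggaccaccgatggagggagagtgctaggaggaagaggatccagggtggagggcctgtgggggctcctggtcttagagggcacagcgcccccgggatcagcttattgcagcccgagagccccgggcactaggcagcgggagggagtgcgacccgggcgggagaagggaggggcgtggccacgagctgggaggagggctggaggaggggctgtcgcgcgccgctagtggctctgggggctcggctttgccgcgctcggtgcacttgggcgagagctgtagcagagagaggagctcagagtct
The Flt3 promoter lies on the minus strand at chr5:147400440-147400739 (GRCm38.p6) and held 1 such core, as TGTCA. The Kit promoter shown, on the plus strand at chr5:75574737-75575036 (GRCm38.p6), is 1 of 2 entries for Kit and held 0. No count for Kit was made in the other entry. On both strands, 45.4% of 32851 promoters of this length held the core, which overlaps the longer form TGACAG. The longer form was in 19.2% of the promoters and in neither of the pair shown.

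The lists ranged from 592 to 48829 peaks and gave positions only, so sequencing depth was unknown. Replicate 2 was the longer list in the TGIF1 4-OHT, MEIS1 4-OHT and MEIS1 EtOH groups and the shorter in TGIF1 EtOH. A missing peak therefore does not show that the protein was absent.

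Induced TGIF1 was found repeatedly at Flt3 and more sparsely at Kit. In the Flt3 window the TGIF1 4-OHT libraries held 6 and 11 peaks, and the TGIF1 EtOH libraries held 3 and 0. Both 4-OHT libraries lay above both EtOH libraries, with means of 8.5 ± 3.54 in 4-OHT and 1.5 ± 2.12 in EtOH (SD, n = 2 each; two-sided exact permutation p = 0.3333, the smallest that 2 against 2 libraries allow). In the Kit window the TGIF1 4-OHT libraries held 2 and 5 peaks and the TGIF1 EtOH libraries held 0 and 0. The groups again did not overlap, with means of 3.5 ± 2.12 in 4-OHT and 0 in EtOH (SD, n = 2 each; two-sided exact permutation p = 0.3333).

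Longer lists put more peaks everywhere, so each count was also set against its own list. Per 10000 peaks of the list, the Flt3 window held 4.94 and 4.08 TGIF1 peaks in the 4-OHT libraries, against 10.9 and 0 in the EtOH libraries. On this scale the groups overlapped and the difference of the means turned to -0.91 (two-sided exact permutation p = 1.0). At Kit the same scale gave 1.65 and 1.86 TGIF1 peaks in the 4-OHT libraries, against 0 and 0 in the EtOH libraries. The TGIF1 EtOH lists held 2764 and 592 peaks, against 12141 and 26932 in 4-OHT. At the 4-OHT rates, lists that short may well hold no peak in the Kit window. The values of 0 and 0 therefore do not show a lower rate. The longest 592 peaks of every TGIF1 list held none in either window, 4-OHT and EtOH alike. At the rates above so few peaks would rarely reach a window, so this setting cannot compare the treatments.

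MEIS1 peaks were dense in both windows and did not separate the treatments. In the Flt3 window the MEIS1 4-OHT libraries held 8 and 13 peaks, and the MEIS1 EtOH libraries held 8 and 11. The groups overlapped, with means of 10.5 ± 3.54 in 4-OHT and 9.5 ± 2.12 in EtOH (SD, n = 2 each; two-sided exact permutation p = 1.0). In the Kit window the counts were the same in both treatments, 6 and 17 peaks in the MEIS1 4-OHT libraries and 6 and 17 in the MEIS1 EtOH libraries (two-sided exact permutation p = 1.0). The spread between replicates was far wider than the difference between treatments, and 2 libraries a group could not have given less than 0.3333. The difference of the means at Flt3 was -0.5 peaks when MEIS1 EtOH replicate 1 was left out and -1.5 peaks when MEIS1 4-OHT replicate 2 was, so it had no stable sign.

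Peak density in the windows was set against the density of the whole list, taken over the 2565 Mb between the outermost peaks of each chromosome. For TGIF1 the Flt3 window was 4.23 and 3.49 times as dense as the list in the 4-OHT libraries, and 9.28 and 0 times in the EtOH libraries, where the first value rests on 3 peaks. The Kit window was 1.21 and 1.36 times as dense in the TGIF1 4-OHT libraries, close to their lists. For MEIS1 the Flt3 window was 3.23 and 2.28 times as dense in the 4-OHT libraries, against 2.61 and 2.16 times in the EtOH libraries. The Kit window was 2.08 and 2.55 times as dense in the MEIS1 4-OHT libraries, against 1.67 and 2.86 times in the MEIS1 EtOH libraries. MEIS1 was thus above the density of its list at both receptors in all 4 libraries. The difference between the windows was not tested.

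Such densities were not rare along the genome. When the genome was tiled into windows as long as that of Flt3, 7.26% and 8.79% of the 8541 tiles held at least as many summits as Flt3 in the TGIF1 4-OHT libraries, and 2.80% did in TGIF1 EtOH replicate 1. For MEIS1 at Flt3 the shares were 8.43% and 16.8% in the 4-OHT libraries and 13.6% and 18.5% in the EtOH libraries. For TGIF1 at Kit, 32.7% and 29.0% of the 7317 longer tiles reached its count in the 4-OHT libraries. For MEIS1 at Kit the shares were 20.3% and 12.9% in the 4-OHT libraries and 25.8% and 10.8% in the EtOH libraries. Tiles in gene deserts are included, so these shares describe the genome as a whole and not the surroundings of active genes.

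**Figure D1:**
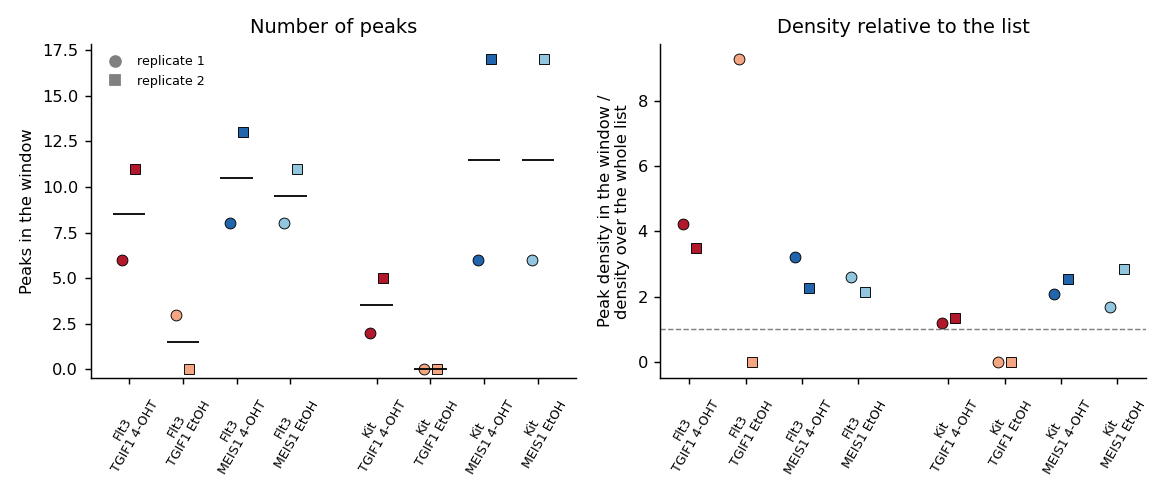
Peaks in the Flt3 and Kit windows per list. Left, number of peaks (circles, replicate 1; squares, replicate 2; bars, mean of the 2 libraries); right, peak density in the window divided by that of the whole list, with a dashed line at 1. TGIF1 4-OHT points lie near 4 in the Flt3 window and just above 1 in the Kit window, while MEIS1 points overlap between the treatments in both.

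The windows differed in which protein their regions carried. Of the 16 regions in the Flt3 window, 7 carried both proteins in some list, 5 carried MEIS1 without TGIF1 and 4 carried TGIF1 without MEIS1. Of the 21 regions in the Kit window, 5 carried both, 16 carried MEIS1 without TGIF1 and 0 carried TGIF1 without MEIS1. Over all 60709 merged regions of the genome the shares were 34.2% with both, 55.7% with MEIS1 without TGIF1 and 10.1% with TGIF1 without MEIS1. Regions are not replicates, and the difference between the windows was not tested. No region of either window was in all 8 lists, as were 0.343% of all merged regions. F16 was in 7.

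Regions in at least 4 lists, in both TGIF1 4-OHT libraries or in a TGIF1 EtOH library were described singly. These were 15 of the 37 regions, 9 at Flt3 and 6 at Kit. At least 4 lists were reached by 7 of 16 regions at Flt3 and 6 of 21 at Kit, beside 36.6% of all merged regions. The remaining 22 regions were in 1 to 3 lists.

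**Figure D2:**
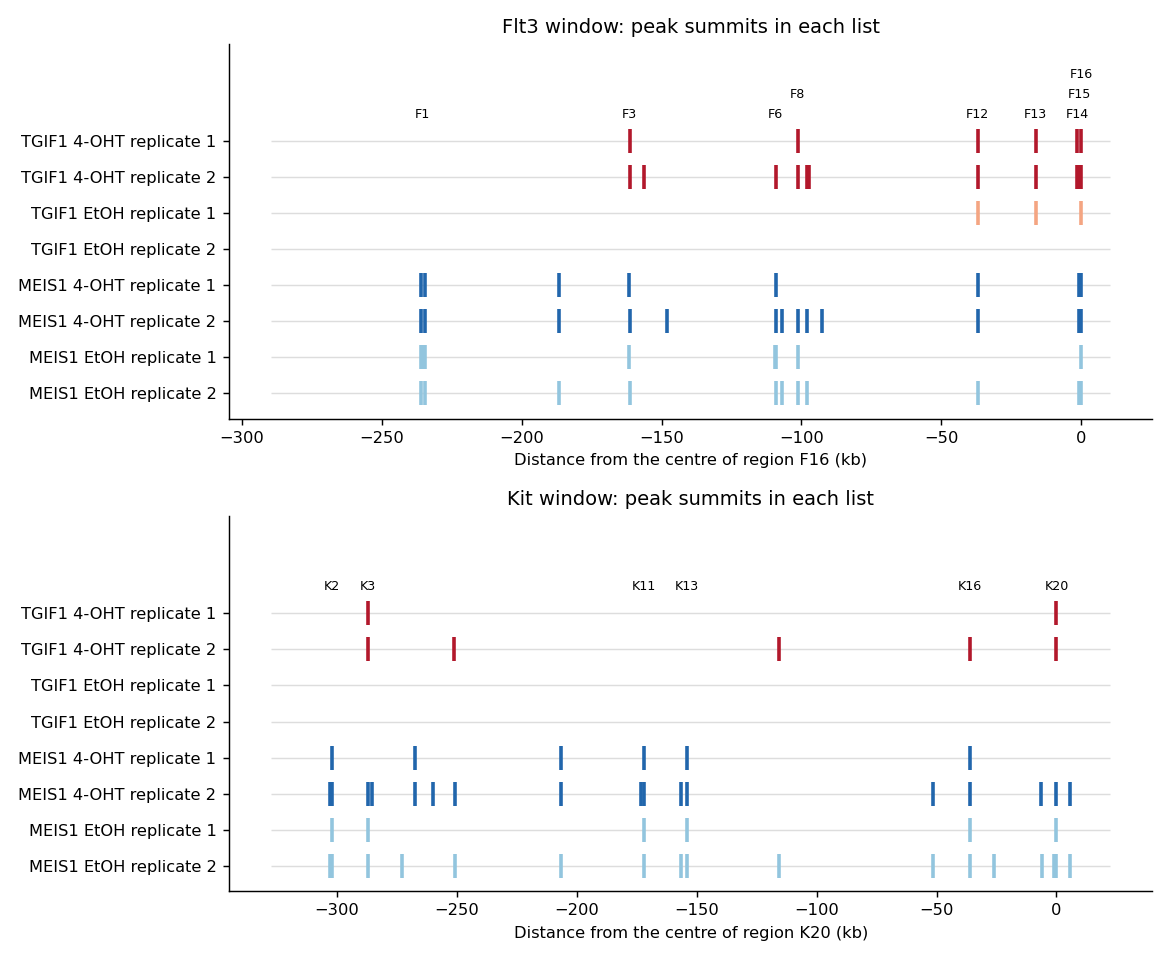
Peak summits in the Flt3 window (top) and the Kit window (bottom), 1 row per list, at their distance in kb from the centre of region F16 or K20; grey lines mark the extent of the window. The TGIF1 EtOH summits, all 3 of them in replicate 1, lie within 40 kb of F16 and each coincides with summits of both TGIF1 4-OHT lists, while the Kit window has no TGIF1 EtOH summit.

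At Flt3, the few TGIF1 peaks called in EtOH cells lay in the same part of the window. All 3 TGIF1 EtOH peaks came from replicate 1 and fell in F12, F13 and F16, within 37.8 kb (chr5:148302138-148339978, mm9). Each of these regions had a TGIF1 peak in both 4-OHT libraries. In all, 4 of the 6 Flt3 regions with both TGIF1 4-OHT libraries were in that stretch. The stretch was drawn around F12, F13 and F16, so only F14 was not placed there by its definition. A TGIF1 EtOH peak was thus present at 3 of these 6 regions in the window, against 0 of 2 at Kit and 21.3% of such merged regions in the genome. All 3 rest on a single library, and TGIF1 EtOH replicate 2, with 592 peaks, had none in either window. The difference from the genome was not tested.

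F16 (chr5:148339169-148339978, mm9) carried both proteins in both treatments. Its TGIF1 peaks were 522 and 810 bp long in the 4-OHT libraries, against 242 bp in EtOH replicate 1 and no peak in EtOH replicate 2. Its MEIS1 peaks were 447 and 552 bp long in the 4-OHT libraries and 525 and 622 bp in the EtOH libraries. MEIS1 lengths overlapped between treatments. The TGIF1 peaks of both 4-OHT libraries exceeded the EtOH one, which also comes from a list of shorter peaks. List medians were 438 and 567 bp in the TGIF1 4-OHT libraries and 283 bp in EtOH replicate 1. By percentile within their lists, the TGIF1 peaks stood at 71.8 and 75.9 in 4-OHT and at 28.8 in EtOH replicate 1. This difference rests on a single EtOH peak and was not tested.

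F12 (chr5:148302138-148302928, mm9) had TGIF1 peaks of 391 and 571 bp in the 4-OHT libraries and of 209 bp in EtOH replicate 1. Its MEIS1 peaks were 358 and 472 bp long in the 4-OHT libraries, against no peak in EtOH replicate 1 and 736 bp in EtOH replicate 2. MEIS1 was therefore reproducible at F12 under 4-OHT and in a single library under EtOH.

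F13 (chr5:148322676-148323694, mm9) held TGIF1 and no MEIS1. Its TGIF1 peaks were 478 and 1019 bp long in the 4-OHT libraries and 176 bp long in EtOH replicate 1. The peak of 1019 bp was the longest TGIF1 peak of either window and stood at percentile 86.3 of its list by length. None of the 4 MEIS1 lists had a peak there. F14 (chr5:148337796-148338292, mm9) also held TGIF1 alone, with 320 and 497 bp in the 4-OHT libraries and no peak in the EtOH libraries. Regions with both TGIF1 4-OHT libraries and no MEIS1 in any list were thus 2 of 6 at Flt3 and 0 of 2 at Kit, beside 11.2% in the genome. F14 lay 0.764 kb from F15 and 1.53 kb from F16 by their centres, and both of those carried MEIS1 in both 4-OHT libraries.

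The remaining Flt3 regions with both TGIF1 4-OHT libraries were F3 and F8. F3 (chr5:148177776-148178568, mm9) had TGIF1 peaks of 391 and 479 bp in the 4-OHT libraries and none in the EtOH libraries. Its MEIS1 peaks were 452 and 714 bp long in the 4-OHT libraries and 555 and 744 bp in the EtOH libraries, so MEIS1 was there in all 4 lists, with lengths that overlapped. F8 (chr5:148237844-148238477, mm9) had TGIF1 peaks of 371 and 576 bp in the 4-OHT libraries and none in the EtOH libraries. Its MEIS1 peaks were missing in 4-OHT replicate 1 and 519 bp long in 4-OHT replicate 2, against 316 and 469 bp in the EtOH libraries.

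No TGIF1 was called at F1, which held the longest Flt3 peak of 3 of the 4 MEIS1 lists. F1 (chr5:148103179-148105281, mm9) joined neighbouring MEIS1 peaks over 2103 bp, 3 of them in EtOH replicate 1 and 2 in each other MEIS1 list. Its longest peak was 945 and 1262 bp in the 4-OHT libraries and 481 and 1120 bp in the EtOH libraries. These stood at percentiles 98.6 and 96.4 of their lists in 4-OHT and 81.8 and 91.6 in EtOH. In MEIS1 EtOH replicate 1 the peaks of F3 (555 bp) and F16 (525 bp), both sites of TGIF1, were longer. At F6 (chr5:148229863-148230841, mm9) the longest MEIS1 peaks were 721 and 878 bp in the 4-OHT libraries and 435 and 979 bp in the EtOH libraries, and TGIF1 was called in 4-OHT replicate 2 alone. At F15 (chr5:148338522-148339094, mm9) MEIS1 was called in both 4-OHT libraries and in EtOH replicate 2, and TGIF1 in 4-OHT replicate 2 alone.

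At Kit, both regions with TGIF1 in both 4-OHT libraries lay near opposite ends of the window, 286 kb apart. K3 (chr5:75840166-75840799, mm9) had TGIF1 peaks of 267 and 486 bp in the 4-OHT libraries and none in the EtOH libraries. Its MEIS1 peaks were missing in 4-OHT replicate 1 and 617 bp in 4-OHT replicate 2, against 220 and 634 bp in the EtOH libraries. K20 (chr5:76127104-76127841, mm9) had TGIF1 peaks of 501 and 718 bp in the 4-OHT libraries and none in the EtOH libraries. Its MEIS1 peaks were missing in 4-OHT replicate 1 and 709 bp in 4-OHT replicate 2, against 482 and 738 bp in the EtOH libraries. These 5 peaks of K20 stood at percentiles from 68.0 to 81.9 of their lists by length, and its TGIF1 peak was the longest Kit peak in each of the 2 TGIF1 4-OHT lists.

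At K3, K20 and F8, MEIS1 was called in both EtOH libraries and, under 4-OHT, in replicate 2 alone. This was the case at both Kit regions and at 1 of the 3 Flt3 regions that had both TGIF1 4-OHT and both MEIS1 EtOH libraries. In the genome it was the case at 22.1% of the 6723 such regions. MEIS1 4-OHT replicate 1 is the shortest MEIS1 list, with 21173 peaks, and in each of the 3 regions replicate 2 had the peak. The part of list length in these missing peaks was not tested.

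Another 4 Kit regions carried MEIS1 in every MEIS1 list. K2 (chr5:75825204-75825854, mm9), K11 (chr5:75955144-75955727, mm9), K13 (chr5:75973197-75973811, mm9) and K16 (chr5:76091017-76091720, mm9) were these regions, and none had TGIF1 in both 4-OHT libraries. Over the genome 28.8% of regions with MEIS1 in both 4-OHT libraries, a wider set, overlapped TGIF1 regions of both 4-OHT libraries. The share among regions with MEIS1 in every list was not computed, and a count of 0 among 4 sets nothing apart. At K2 the MEIS1 peaks were 490 and 602 bp long in the 4-OHT libraries and 417 and 513 bp in the EtOH libraries. At K13 they were 358 and 558 bp long in the 4-OHT libraries and 187 and 615 bp in the EtOH libraries. Lengths overlapped between treatments at both. TGIF1 was called at K16 alone among these 4, in 4-OHT replicate 2, with 386 bp. Of all merged regions with MEIS1, 29.0% had it in all 4 lists, beside 4 of 12 at Flt3 and 4 of 21 at Kit.

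At most other Kit regions, MEIS1 was called in its longer lists alone. MEIS1 was limited to the replicate 2 libraries at 13 of 21 Kit regions and at 4 of 12 Flt3 regions with MEIS1, beside 46.3% in the genome. K6 (chr5:75859882-75860291, mm9), chosen after its values were seen, was the only region of either window with MEIS1 in both 4-OHT libraries and in neither EtOH library. Its peaks were 281 and 410 bp long in the 4-OHT libraries and stood at percentiles 4.13 and 8.06 of their lists, among the shortest.

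**Figure D3:**
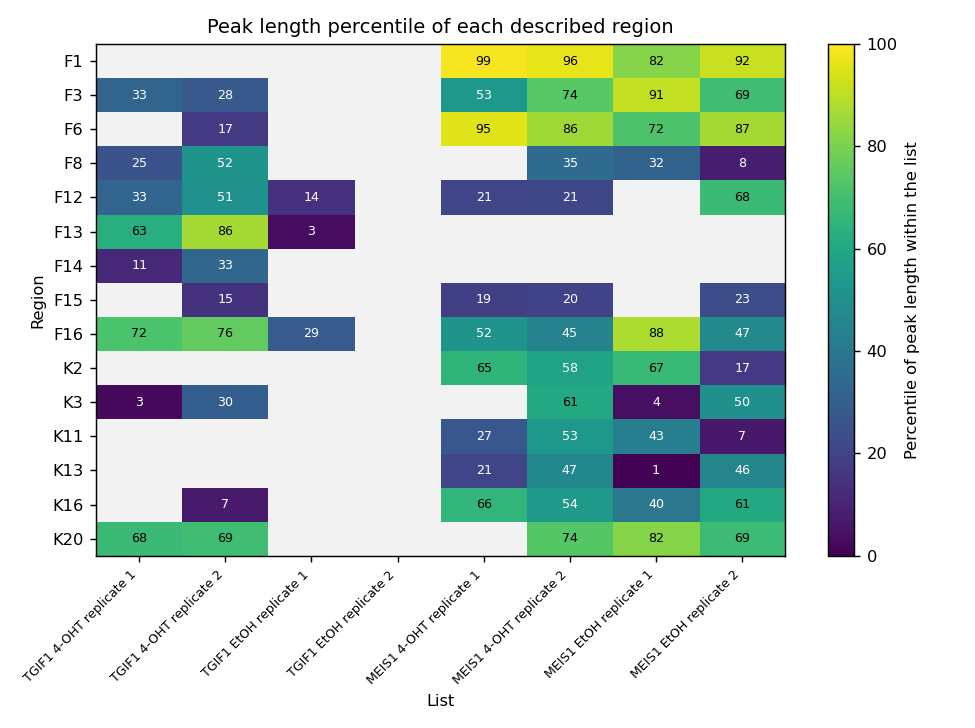
Length of the longest peak of each described region as its percentile within the list, by list; grey cells have no peak. F1 has the highest MEIS1 value in the 4-OHT lists and in EtOH replicate 2 and F3 in EtOH replicate 1, F13 and F14 have no MEIS1 peak, and K3, K20 and F8 lack a peak in MEIS1 4-OHT replicate 1.

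Regions called in both libraries of their group, termed reproducible, were compared between proteins. Peaks were merged within the group here, so the MEIS1 peaks joined in F1 counted as 2 regions in each treatment. At Flt3, 3 of 6 reproducible MEIS1 EtOH regions overlapped a reproducible TGIF1 4-OHT region (50%, exact 95% interval 11.8 to 88.2%), and at Kit 2 of 6 did (33.3%, exact 95% interval 4.33 to 77.7%). In the genome the share was 29.8%, inside both intervals. With the longer part of each list alone, the upper 50% by length, the counts were 0 of 4 at Flt3 and 1 of 1 at Kit. In the other direction, 3 of 6 reproducible TGIF1 4-OHT regions at Flt3 (50%, exact 95% interval 11.8 to 88.2%) and 2 of 2 at Kit overlapped a reproducible MEIS1 EtOH region, beside 60.9% in the genome. Intervals cover counting error only, and counts this small cannot set either receptor apart from the genome.

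With MEIS1 taken from 4-OHT cells, the count was the same at Flt3 and lower at Kit. At Flt3, 3 of 6 reproducible TGIF1 4-OHT regions overlapped a reproducible MEIS1 4-OHT region, namely F3, F12 and F16. At Kit, 0 of 2 did, beside 51.0% in the genome. The 2 Kit regions are K3 and K20, where MEIS1 4-OHT replicate 1 had no peak.

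No reproducible MEIS1 EtOH region of either window was missing from both 4-OHT libraries. Of the reproducible MEIS1 EtOH regions, 0 of 6 at Flt3 and 0 of 6 at Kit lacked a peak in both 4-OHT libraries, which allows a share of up to 50% at each. The share in the genome was 2.91%. Without MEIS1 4-OHT replicate 2, the longest list, 1 of 6 at Flt3 (F8) and 2 of 6 at Kit (K3 and K20) had no 4-OHT peak. Of the reproducible MEIS1 4-OHT regions, 0 of 8 at Flt3 (up to 37.5%) and 1 of 6 at Kit (16.7%, exact 95% interval 0.421 to 64.1%) lacked a peak in both EtOH libraries, beside 3.22% in the genome. The Kit region is K6. Without MEIS1 EtOH replicate 2 the counts were 3 of 8 at Flt3 and 2 of 6 at Kit. The genome shares were not computed with a library left out. Counts that lack a library therefore cannot be set against the 2.91% and 3.22% above. MEIS1 in both 4-OHT libraries and in a single EtOH library was seen at 3 of 12 Flt3 regions with MEIS1 (F2, F12 and F15) and 1 of 21 Kit regions (K9), beside 5.89% in the genome. In these 4 regions the EtOH library with the peak was replicate 2, the longer list. F2 and K9 were named after their values were seen.

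Peaks of the shorter list of a group were mostly found in the longer one, in the windows as in the genome. For TGIF1 EtOH the shorter list had no peak in the windows, and 0 of the 3 Flt3 peaks of replicate 1 were in it, beside 16.9% in the genome. All 6 peaks of TGIF1 4-OHT replicate 1 at Flt3 and both at Kit were found in replicate 2, beside 96.5% in the genome. Of the replicate 2 peaks, 6 of 11 at Flt3 and 2 of 5 at Kit were found in replicate 1, beside 41.4%. For MEIS1, all 8 replicate 1 peaks at Flt3 and all 6 at Kit were found in replicate 2 of the same treatment, in 4-OHT and in EtOH, beside 95.7% and 90.8% in the genome. Of the MEIS1 replicate 2 peaks, 8 of 13 at Flt3 and 6 of 17 at Kit were found in replicate 1 under 4-OHT, beside 40.7%, and 6 of 11 and 6 of 17 under EtOH, beside 52.3%.

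Most summits of induced TGIF1 and MEIS1 in overlapping peaks lay within 50 bp of each other in both windows, as they did over the genome. The 12 regions with a TGIF1 4-OHT and a MEIS1 peak gave 57 pairs of overlapping peaks, 38 at Flt3 and 19 at Kit. The median distance between summits was 19 bp at Flt3 and 8 bp at Kit, and 27 of the 38 pairs and 18 of the 19 were within 50 bp, beside 62% of all such pairs in the genome. List by list, the Flt3 median ran from 12 to 55 bp over the 8 pairs of lists and the Kit median from 1.5 to 31 bp over the 7 pairs with a value, beside 28 to 31 bp in the genome. The Flt3 median was above that of the genome in 3 of the 8 pairs of lists and below it in 5, and the Kit median was below it in 6 of 7. Pairs of 1 region share their peaks and are not independent, so no test was made.

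K3 and F16 were the tightest of the regions with both TGIF1 4-OHT libraries. At K3 the TGIF1 and MEIS1 summits were 2 to 6 bp apart over 6 pairs, and at F16 they were 1 to 11 bp apart over 8 pairs. At F12 they were 29 to 67 bp apart, and every MEIS1 summit lay on the same side of the TGIF1 summits. The widest distance was 339 bp at F6, where MEIS1 EtOH replicate 1 had separate peaks side by side and the TGIF1 summit lay 25 bp from the other one.

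**Figure D4:**
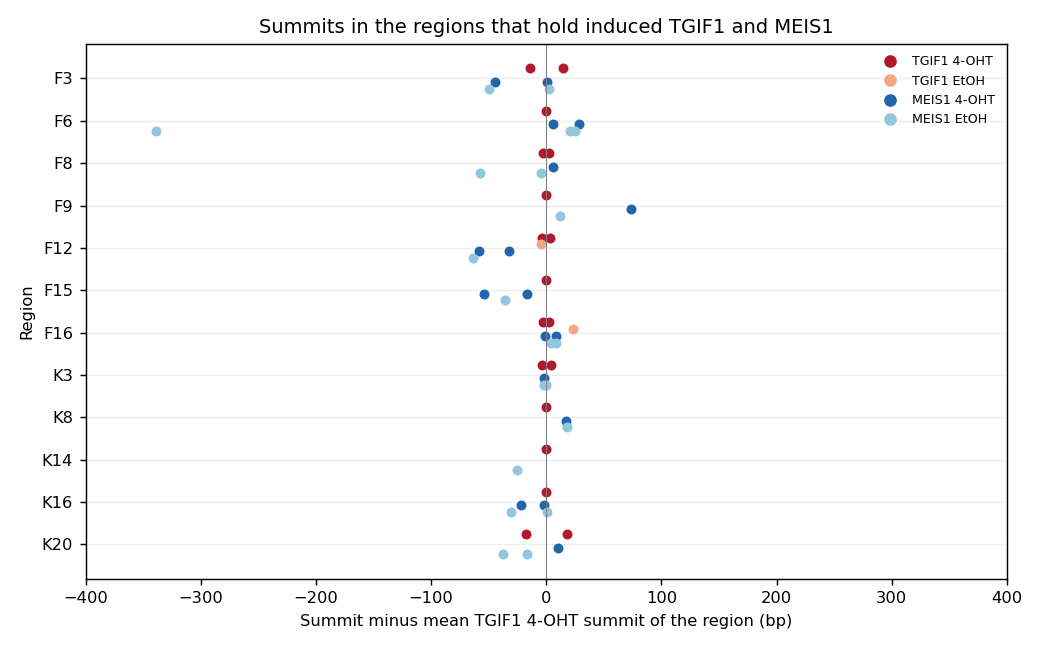
Summit positions in the 12 regions with a TGIF1 4-OHT and a MEIS1 peak, in bp from the mean TGIF1 4-OHT summit of the region; points are single peaks, coloured by group. Most MEIS1 summits lie within 50 bp of the TGIF1 summits, and 1 MEIS1 EtOH summit of F6 lies 339 bp away. Those of F12 all lie to one side, as do those of F9, F15 and K8, where TGIF1 was called in 4-OHT replicate 2 alone.

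Peak length, the only measure of size in the lists, had medians near or below the middle of the lists when libraries were pooled. By percentile within their own list, the 20 TGIF1 peaks at Flt3 had a median of 32.8 and the 7 at Kit a median of 30.0. The 40 MEIS1 peaks at Flt3 had a median percentile of 52.6 and the 46 at Kit one of 38.0. By library, the MEIS1 medians at Flt3 were 51.6 and 44.9 in the 4-OHT libraries and 75.4 and 59.2 in the EtOH libraries. At Kit they overlapped, with 37.1 and 40.4 in the 4-OHT libraries and 41.2 and 26.2 in the EtOH libraries. These differences were not tested. Above percentile 90 were 5 of the 40 MEIS1 peaks at Flt3, 0 of the 46 at Kit and 0 TGIF1 peaks. By definition, about 90% of the peaks of every list lie at or below this percentile. The difference of these counts from that share was not tested, and peaks are not replicates. Of the 5, 3 belonged to F1, 1 to F3 and 1 to F6.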

How the data were processed

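The peak lists of 8 libraries were used, 2 for each of TGIF1 and MEIS1 in 4-OHT and EtOH cells, grouped by sample titles. The deposited lists hold positions, lengths and summit offsets in bp on mm9, with no score or read number, so depth and its error are unknown. Per the submitters' processing notes, Bowtie 0.12.7 was used, and peaks of MEIS1 4-OHT replicate 2 came from MACS 1.4.2, per the file headers. For the other lists the caller, and for all lists the threshold and control, are not given in the sources. Peaks were called per library.

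Peaks overlapping by at least 1 bp were merged. Summit positions were taken as the start plus the offset minus 1. Counts per window were compared by a two-sided exact permutation test, threshold 0.05, and the other values are descriptions, shares with exact (Clopper-Pearson, 95%) intervals. Limits at 0 are 3 counts over the number of regions. Regions in at least 4 lists, in both TGIF1 4-OHT libraries or in a TGIF1 EtOH library were named. The planned list of related receptor and ligand genes needed an mm9 annotation and was not run. Windows, members and lists were chosen with earlier results of these data known. Alternatives were a reciprocal overlap of 50%, centres within 200 bp, unions of libraries, the longer part of each list, lists of equal length, counts per 10000 peaks, windows widened by 50 kb, summits inside the window and libraries left out. The overlap code gave the same counts as bedtools 2.31.1 in 112 of 112 comparisons. Python 3.11.15, numpy 2.4.6, pandas 2.3.3, scipy 1.17.1 and matplotlib 3.10.9 were used.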

Additional observations from a re-analysis of the deposited data

How the results depend on the processing

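Of 112 recomputed values, 3 differences turned their sign and 5 shares left the interval of the reported value. This total is no measure of stability, since some values could hardly change. The MEIS1 difference at Kit was 0 and could not turn its sign. The TGIF1 difference at Kit, with EtOH counts of 0 and 0, could not turn it when a library was left out. Intervals of the shares were wide, such as 11.8 to 88.2% for MEIS1 EtOH regions with TGIF1 at Flt3. No peak number passed the threshold under any setting, which 2 libraries a group could not reach. The TGIF1 difference at Flt3, 7.0 peaks, turned to -0.91 per 10000 peaks of the list. It was 4.5 to 9.5 when single libraries were left out, and that at Kit, 3.5 peaks, was 2.0 to 5.0. Both were 0 with lists of equal length, which hold few TGIF1 peaks. The MEIS1 difference at Flt3, 1.0 peak, was -1.5 to 3.5 when single libraries were left out (-0.5 lacking MEIS1 EtOH replicate 1 and -1.5 lacking MEIS1 4-OHT replicate 2), and it was 0 with lists of equal length and with the longer part of each list. The MEIS1 difference at Kit was 0 and so had no direction; it was -5.5 to 5.5 when single libraries were left out, 1.5 with lists of equal length, 1.0 with the longer part and -0.5 with wider windows. With the longer part of each list, the share of MEIS1 EtOH regions with TGIF1 was 0% at Flt3 and 100% at Kit, that of TGIF1 regions with MEIS1 was 0% at Flt3, and that of MEIS1 4-OHT regions new at Kit was 0%; these rest on 1 to 4 regions. When single libraries were left out, MEIS1 EtOH regions with TGIF1 were 36.4 to 66.7% at Flt3 and 11.8 to 50% at Kit, and TGIF1 regions with MEIS1 were 36.4 to 66.7% at Flt3 and 60 to 100% at Kit. Lost MEIS1 regions were 0 to 16.7% at Flt3 and 0 to 33.3% at Kit, and new ones 0 to 37.5% at Flt3 and 16.7 to 33.3% at Kit. The labels do not say that replicate numbers pair the libraries, and 2 pairs a protein cannot show it. With the replicate block the TGIF1 differences were 7.0 and 3.5 peaks (exact sign-flip permutation p = 0.5 each, the smallest it allows), and those of MEIS1 were 1.0 and 0 (exact p = 1.0 each). It changed no call.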
